A study of Homo sapiens with 30 samples.

Results

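Among the sites of open chromatin mapped by ATAC-Seq in G401 cells, 6527 were open in every sample that expressed SNF5 but only in some of the EGFP control samples, out of 40005 sites in all. They were chosen by merging the peaks of all 9 ATAC-Seq samples that overlapped by 1 bp or more on hg38, and keeping the merged sites with a peak in 3 of 3 SNF5 samples and in 1 or 2 of 3 EGFP samples. These sites are called variable sites here. G401 is a rhabdoid tumor line that lacks SNF5, a subunit of the SWI/SNF chromatin remodeling complex encoded by SMARCB1. All groups carried a TET-inducible construct introduced by lentivirus, were selected with G418, and received 1 μg/ml doxycycline for 24 h, which induced EGFP as the control, SNF5, or OMOMYC, a mutant of MYC that interferes with its binding to DNA. ATAC-Seq and PRO-Seq were carried out in 3 samples of each construct and MYC ChIP-Seq in 2, and the labels describe selected populations of a single tumor line, so the p-values measure the spread between these samples.

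ATAC-Seq relies on a transposase that cuts exposed DNA, so a peak marks a stretch where nucleosomes are displaced, most often a promoter or an enhancer. SWI/SNF moves and ejects nucleosomes with energy from ATP. In rhabdoid tumors, which lose SNF5, enhancers that regulate differentiation are known to collapse, while remaining complexes move to super-enhancers that the tumor cells depend on. Promoters of broadly expressed genes usually lie in CpG-rich DNA and stay open in most cells, whereas distal enhancers differ between cell types.

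The deposited peak lists do not give the reads under a peak, and a missing peak means only that the authors' threshold was not passed. The number of peaks per list differed widely, from 9208 to 17817 for EGFP, from 7260 to 23684 for OMOMYC and from 22722 to 33596 for SNF5. The PRO-Seq samples had 28388012 to 46859674 gene body reads and 517824 to 3381190 promoter-proximal reads. As a check of the labels, SMARCB1 gene body CPM (counts scaled to library size) were 0.119, 0.0358 and 0.136 in the EGFP samples and 75.6, 139 and 83.3 in the SNF5 samples, and between 0.0609 and 0.186 in the OMOMYC samples.

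Some promoters carried variable sites, and those printed here differed in GC content. Of the genes with a variable site within 1 kb of the start, 5 are shown that lie among those with the largest change in transcription described further on, 3 with a rise (CCDC80, CD274 and LHFPL2) and 2 with a fall (DCXR and CEBPA). Each line gives the 250 bases before the RefSeq gene start in GRCh38.p14, read 5′ to 3′ on the strand of the gene, with matches to any of 4 motifs in capitals. The windows were chr3:112641144-112641393 on the minus strand for CCDC80, chr9:5450292-5450541 on the plus strand for CD274, chr5:78648773-78649022 on the minus strand for LHFPL2, chr17:82037698-82037947 on the minus strand for DCXR and chr19:33302535-33302784 on the minus strand for CEBPA.
CCDC80: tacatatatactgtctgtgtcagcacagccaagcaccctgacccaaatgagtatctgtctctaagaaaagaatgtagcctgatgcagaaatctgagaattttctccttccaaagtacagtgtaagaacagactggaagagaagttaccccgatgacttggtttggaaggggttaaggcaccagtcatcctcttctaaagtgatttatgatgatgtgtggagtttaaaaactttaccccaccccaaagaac
CD274: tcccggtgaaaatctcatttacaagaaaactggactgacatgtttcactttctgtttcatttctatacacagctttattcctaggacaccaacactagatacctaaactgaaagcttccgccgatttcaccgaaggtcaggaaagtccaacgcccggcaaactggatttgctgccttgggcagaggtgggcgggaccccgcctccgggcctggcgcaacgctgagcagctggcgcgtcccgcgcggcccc
LHFPL2: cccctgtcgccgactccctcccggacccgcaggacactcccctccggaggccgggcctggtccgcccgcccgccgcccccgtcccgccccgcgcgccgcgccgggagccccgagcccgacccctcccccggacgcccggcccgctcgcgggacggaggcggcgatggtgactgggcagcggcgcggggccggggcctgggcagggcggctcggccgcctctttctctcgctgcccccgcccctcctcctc
DCXR: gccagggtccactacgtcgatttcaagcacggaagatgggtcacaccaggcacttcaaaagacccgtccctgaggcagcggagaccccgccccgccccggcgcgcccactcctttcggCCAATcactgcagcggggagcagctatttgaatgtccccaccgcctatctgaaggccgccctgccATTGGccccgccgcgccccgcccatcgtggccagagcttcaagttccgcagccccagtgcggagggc
CEBPA: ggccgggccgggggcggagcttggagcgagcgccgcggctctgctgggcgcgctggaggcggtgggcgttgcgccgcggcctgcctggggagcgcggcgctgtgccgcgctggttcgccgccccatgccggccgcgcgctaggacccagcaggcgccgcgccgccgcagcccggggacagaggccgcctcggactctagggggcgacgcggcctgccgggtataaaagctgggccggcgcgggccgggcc
The variable sites covered 171, 144, 250, 185 and 250 of these 250 bases, in the same order. The GC content was 42% for CCDC80, 54.8% for CD274, 66.8% for DCXR, 81.2% for CEBPA and 83.2% for LHFPL2. The DCXR window held a match to CCAAT beginning 132 bases before the start and another, read as ATTGG on this strand, beginning 67 bases before it, while the other 4 windows held no match. The same windows of MOCS1 and STK39, which rose, and SAMD1, which fell, are not printed. Their GC contents were 64.4, 76.4 and 78%. MOCS1 held an ATTGG match beginning 77 bases before the start, and STK39 and SAMD1 held no match.

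The same letters were searched on both strands in the 300 bases from 250 before to 50 after the start, for all 27305 RefSeq promoters in the table. Of these, 2548 belonged to genes with a variable site within 1 kb. The site for AP-1 factors, TGANTCA, was in 3.34% of these promoters and in 7.76% of all promoters, and in 11.6% of the 404 promoters whose only SNF5-open site had no EGFP peak. The cyclic AMP response element, TGACGTCA, was in 3.92% of the promoters with a variable site and in 1.98% of all. The E-box bound by MYC, CACGTG, was in 10.6% against 7.43%, and the CCAAT box, CCAAT, bound by NF-Y, in 32.8% against 35.7%. The promoters with a variable site had a median GC content of 66.7% and a median of 28 CpG dinucleotides, against 58.3% and 14 over all promoters. Promoters of genes with a site that had peaks in all 3 EGFP samples and no variable site were close to them in GC content (65.7%), AP-1 sites (3.23%), cyclic AMP response elements (3.82%) and E-boxes (10.7%), but held a CCAAT box in 43.0% of 6262. No motif contains another, and a match is a run of letters and not a measured binding site. The sequence of sites away from promoters was not analysed here.

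The rule itself fixed the peaks in the EGFP and SNF5 samples, so the following values only describe the sites. Of the variable sites, 2991 had a peak in 1 EGFP sample and 3536 in 2. EGFP replicate 2, which had the longest of the EGFP lists, held a peak at 92.4% of these sites. Replicate 1 held one at 47.3%, and replicate 3, which had the shortest list, at 14.5%. Most sites therefore fell into few patterns: 2682 had peaks in EGFP replicates 1 and 2, 2559 in replicate 2 alone and 792 in replicates 2 and 3, while 341 had a peak in replicate 1 alone, 91 in replicate 3 alone and 62 in replicates 1 and 3. Just outside the rule, 1877 sites with 1 EGFP peak and 537 with 2 had a peak in 2 of 3 SNF5 samples. Only 20 sites had peaks in 2 EGFP samples and in no SNF5 sample, against 624 with a peak in 1 EGFP sample and none in SNF5.

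The variable sites were of middling strength. The median fold enrichment over the local background, as the authors' peak caller gives it, was 5.33, 5.83 and 6.19 in the EGFP samples that had a peak, and 6.21, 6.61 and 6.33 in the SNF5 samples. Ranked by q within their own lists, peaks at variable sites had a median percentile of 31.8, 39.5 and 27.1 in EGFP and of 64.3, 54.0 and 47.6 in SNF5. In the SNF5 lists they lay above the peaks at the 3638 sites open in SNF5 with no EGFP peak (50.2, 43.0 and 36.2) and below those at the 7378 sites with peaks in all samples of both constructs (88.1, 84.8 and 81.5). They also lay between these classes in width, with a median of 356 bp against 306 and 625 bp. With the 7260 strongest peaks of every list, 844 sites met the rule, and with peaks of −log10 q of at least 5, 6429 did. Cutting the lists to equal numbers changed both their lengths and the weakest peaks kept, and the part of each was not tested. Without replicate 2, 4198 sites had peaks in both remaining SNF5 samples and 1 of the 2 EGFP samples.

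**Figure D1:**
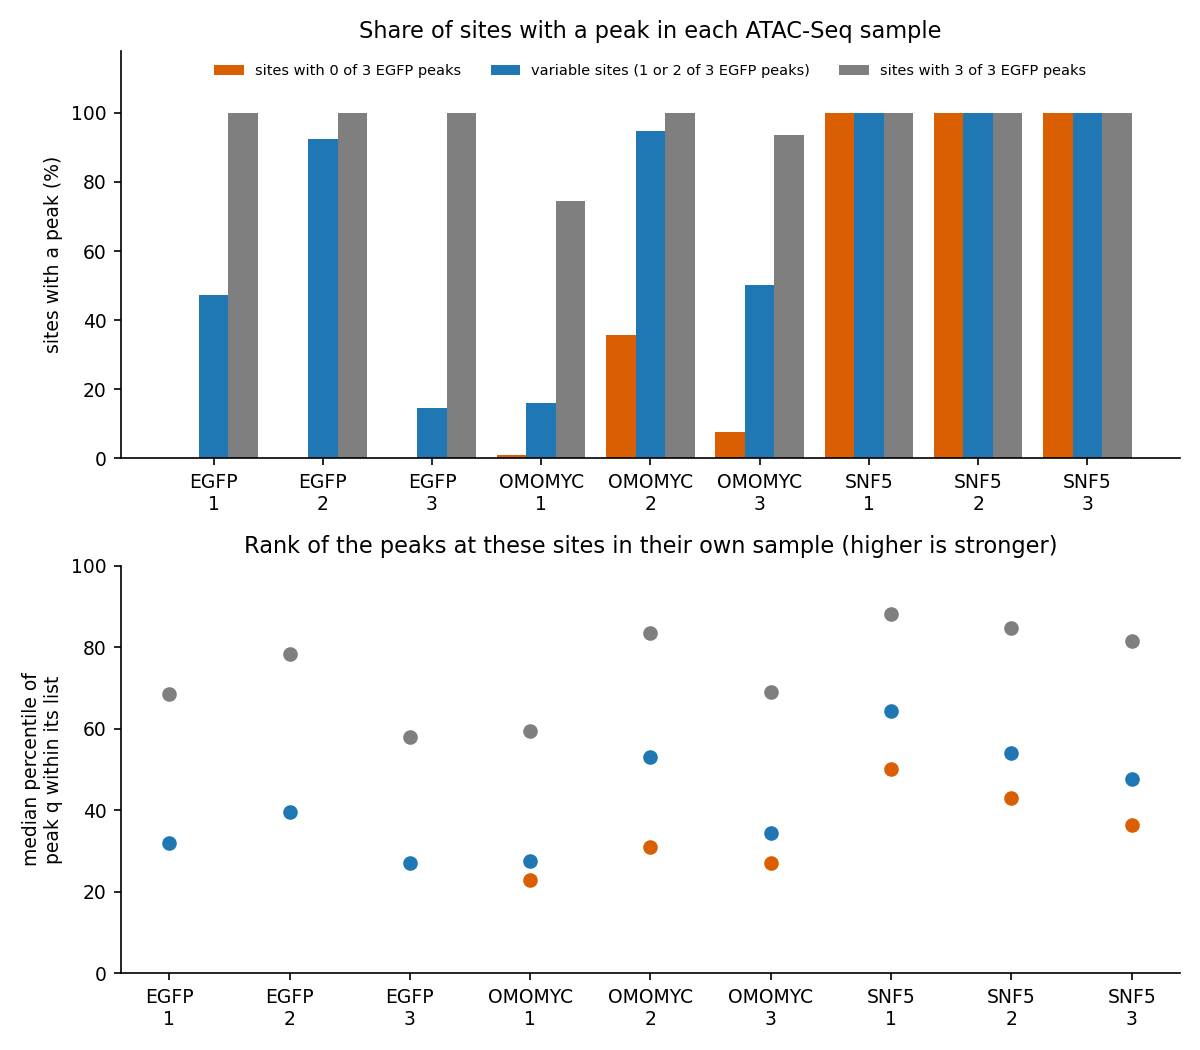
Top, percent of the sites of each class with a peak in each of the 9 ATAC-Seq samples (bars). Bottom, median percentile by q of those peaks within the list of their sample (points), where the variable sites (blue) lie below the sites with 3 of 3 EGFP peaks (gray) in every sample, and the EGFP and SNF5 bars follow from how the classes were defined.

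The 6 variable sites with the highest mean fold enrichment in SNF5 lay mostly away from coding genes. The strongest, chr7:143836571-143836829, lay 62 bp upstream of the noncoding LOC112267988, with fold enrichments of 16.3, 14.6 and 16.5 in SNF5, 10.9 and 10.4 in EGFP replicates 2 and 3, and 14.4 and 8.05 in OMOMYC replicates 2 and 3. A site 15601 bp upstream of GRAPL, which encodes an adaptor-like protein, had 10.8, 14.2 and 11.8 in SNF5 and 9.75 and 9.47 in EGFP replicates 1 and 2. Both were missed in 1 EGFP sample only. At protein-coding starts, the strongest lay 283 bp downstream of the start of TSPAN6, a tetraspanin, with 14.1, 10.7 and 11.4 in SNF5 and 9.47 in EGFP replicate 2 alone. Next was a site 38 bp upstream of CNTRL, which encodes the centrosomal protein centriolin, with 11.7, 12.4 and 11.9 in SNF5 and 7.20 and 9.03 in EGFP replicates 1 and 2. The promoter sites of the nucleoporin gene POM121, TMEM191C and the tryptophan hydroxylase gene TPH2 had mean SNF5 fold enrichments of 11.6, 11.4 and 11.2. At TPH2 the EGFP peaks of replicates 1 and 2 had 8.62 and 10.4, next to 10.8, 10.6 and 12.2 in SNF5. In the EGFP samples that had a peak, these sites lay above the medians of all variable sites.

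The OMOMYC samples were not used by the rule. A peak in at least 1 OMOMYC sample was present at 6258 variable sites, 95.9% (exact 95% confidence interval from 95.4 to 96.3%), against 58.6% of all merged sites. The share was 36.5% (34.9 to 38.1%) for sites open in SNF5 with no EGFP peak and 99.96% for sites with peaks in all EGFP and SNF5 samples. These intervals cover counting error only, and sites of the same sample are not replicates. The share differed by sample. Of the variable sites, 16.1% had a peak in OMOMYC replicate 1, 94.7% in replicate 2 and 50.3% in replicate 3. The same shares over all merged sites were 17.2, 57.4 and 29.1%. In both cases this is the order of the lengths of the lists, and the part of list length was not tested. All 3 OMOMYC samples had a peak at 705 variable sites (10.8%), against 15.2% of all merged sites, and 269 variable sites had none. Without replicate 2, the share of variable sites with an OMOMYC peak was 62.8%, and the share of all sites was not computed for this setting.

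An OMOMYC peak was present at 98.8% (98.4 to 99.1%) of variable sites with 2 EGFP peaks and at 92.4% (91.4 to 93.3%) of those with 1. The same order held outside the rule, at sites with a peak in 2 of 3 SNF5 samples (90.7 and 80.9%). The share within an OMOMYC sample varied with the EGFP replicate that had a peak. OMOMYC replicate 1 had a peak at 26.9% (25.2 to 28.6%) of the sites with peaks in EGFP replicates 1 and 2 and at 15.8% (13.3 to 18.5%) of those with peaks in replicates 2 and 3, and OMOMYC replicate 3 at 60.6% (58.7 to 62.4%) and 67.0% (63.6 to 70.3%). Sites with a peak in EGFP replicate 1 alone had one in OMOMYC replicate 1 at 8.21%, in replicate 2 at 87.1% and in replicate 3 at 26.7%. For sites with a peak in EGFP replicate 3 alone these shares were 3.30, 85.7 and 37.4%. Within each of the 6 EGFP patterns, OMOMYC replicate 2 had the highest share and replicate 1 the lowest.

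**Figure D2:**
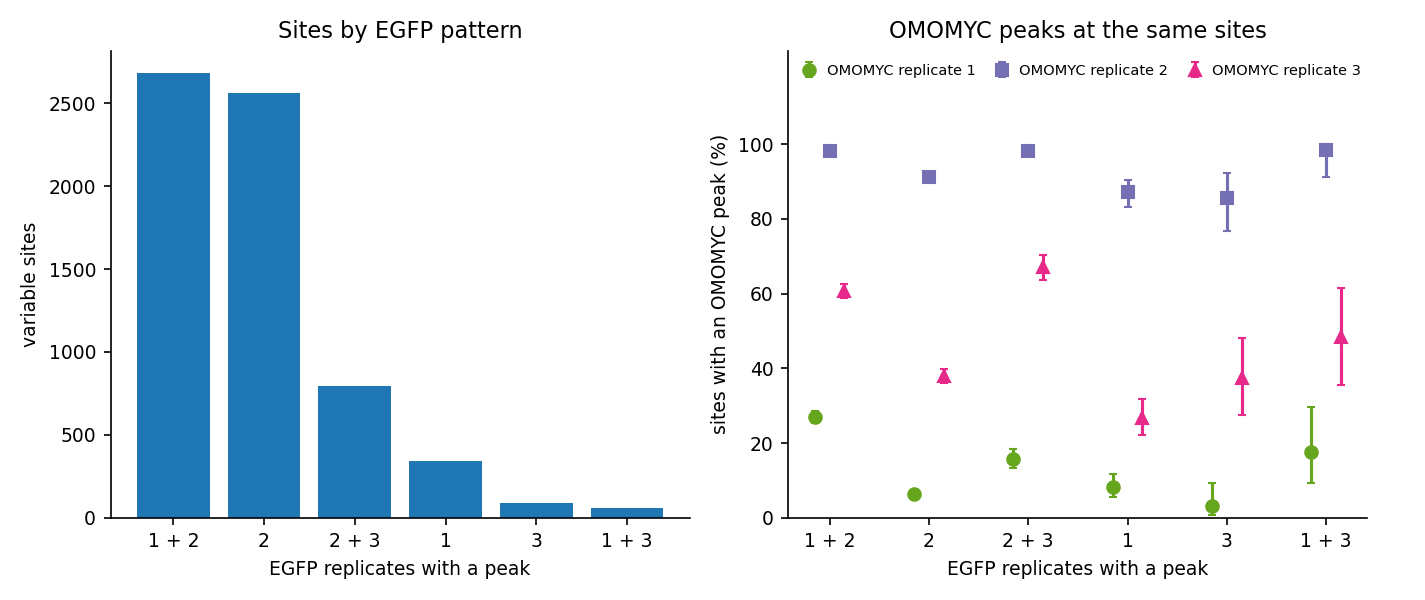
Left, number of variable sites for each combination of EGFP replicates with a peak (bars). Right, percent of those sites with a peak in each OMOMYC replicate (points, with exact 95% confidence intervals), from 85.7 to 98.4% for replicate 2 and from 3.30 to 26.9% for replicate 1.

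Position relative to genes was not part of the rule. Variable sites split between promoters and distal DNA: 2571 (39.4%) lay within 1 kb of a RefSeq gene start, 593 between 1 and 5 kb, and 3363 at least 5 kb away. The distal share was 51.5% (50.3 to 52.7%), against 58.5% of all merged sites, 75.7% (74.3 to 77.1%) of the SNF5-open sites with no EGFP peak and 18.6% (17.7 to 19.5%) of those with 3 EGFP peaks. The median distance was 5845 bp for variable sites, 20552 bp for sites with no EGFP peak and 130 bp for sites with all 3. Sites with 1 EGFP peak were distal in 60.8% (59.0 to 62.6%) and those with 2 in 43.7% (42.0 to 45.3%). Among sites within 1 kb, the centre was upstream of the start at 1776 and downstream at 788. With RefSeq giving 1 start per gene here, alternative promoters count as distal. Among the 7260 strongest peaks of each list, 34.4% of the 844 sites that met the rule were distal.

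Distal variable sites had higher fold enrichment than promoter ones in the samples with a peak. Rank by q was not compared by distance. Fewer of the distal sites had peaks in 2 EGFP samples (44.1% beyond 50 kb against 65.1% within 1 kb). In the SNF5 samples the median fold enrichment was 5.84, 6.27 and 5.97 within 1 kb of a start and 6.75, 7.23 and 7.04 beyond 50 kb. In the OMOMYC samples it was 4.94, 6.16 and 5.48 within 1 kb and 5.34, 7.23 and 6.65 beyond 50 kb. OMOMYC replicate 1 had a peak at 28.5% of the variable sites within 1 kb but at 5.10% of those beyond 50 kb, while the share in replicate 2 was 95.7% within 1 kb and 94.995% beyond 50 kb, and that in replicate 3 was 51.2 and 55.4%. EGFP replicates 1 and 3 moved in opposite directions over the same distances, from 58.6 to 30.9% and from 12.9 to 21.1%. The width fell from a median of 455 bp to 294 bp.

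**Figure D3:**
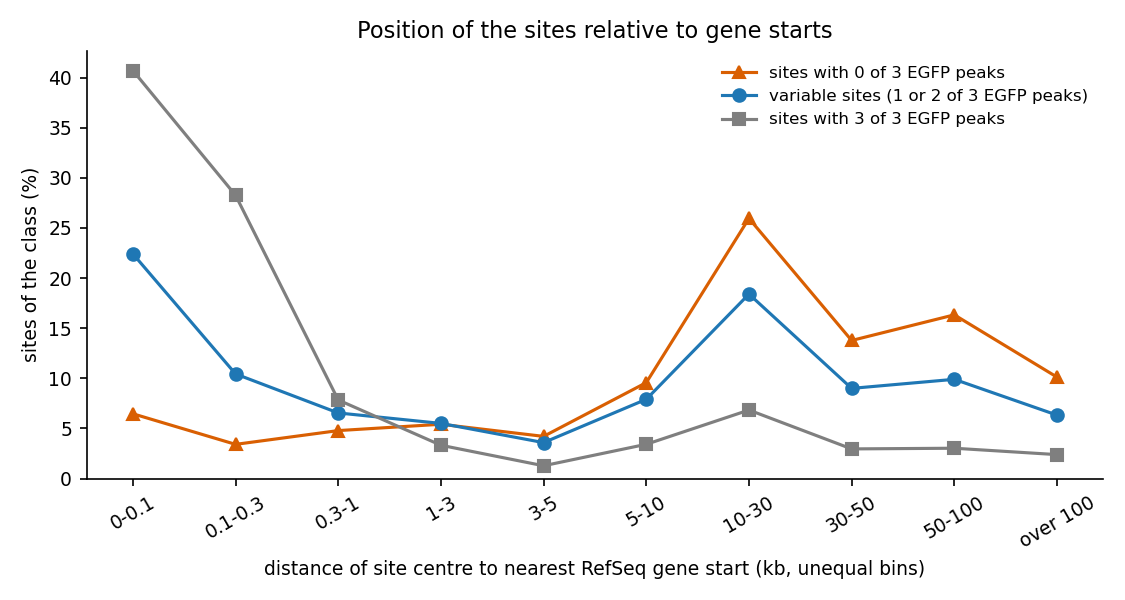
Percent of the sites of each class (y axis) by distance of the site centre from the nearest RefSeq gene start (x axis, unequal bins in kb). Variable sites (blue) have maxima at 0 to 0.1 kb (22.4%) and 10 to 30 kb (18.4%). They lie between the sites with 0 and with 3 EGFP peaks in every bin except that from 1000 to 3000 bp.

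Variable sites were mostly scattered. Of all 6527, 90.7% had no other variable site within 10000 bp, and 59 lay in 19 groups of at least 3, the largest of 4 sites. Groups of 4 lay on chromosome 7 from 38354345 to 38370207, next to TARP, and from 151727656 to 151754615, next to PRKAG2. By chromosome, they made up the largest share of all merged sites on chromosome 19, with 277 of 1220 (22.7%), followed by chromosome 22 with 95 of 448 (21.2%). Among genes nearest to distal variable sites, FAM110B, HACE1, MBL2 and NTM had 7 sites each, and SPRY1, an inhibitor of receptor tyrosine kinase signaling, had 6. These genes were picked after their counts were seen.

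To ask whether genes beside variable sites changed in transcription, gene body counts of PRO-Seq, which maps engaged RNA polymerase along genes, were compared between constructs. In the genes with a variable site within 1 kb of the start, falls outnumbered rises with SNF5, as they did in genes with no such SNF5-open site, whereas genes nearest to distal variable sites rose more often than they fell. Of 2107 tested genes with a variable site at the promoter, 244 (11.6%) were higher with SNF5 and 348 (16.5%) lower, in edgeR's quasi-likelihood test blocked on the replicate number, at a Benjamini-Hochberg adjusted p under 0.05. Over all 11171 genes tested, 15.5% were higher and 14.6% lower. The median log2 fold change was −0.06 for genes with a variable site and −0.02 for all. The 3263 genes with none of these sites within 1 kb (variable, 3-of-3, or open in SNF5 with no EGFP peak) were close to them, with 12.4% higher, 17.9% lower and a median of −0.07. The 5485 genes with a 3-of-3 site and no variable site were higher in 18.8% and lower in 12.0%, and the 228 with only a site that had no EGFP peak in 21.9% and 14.9%. The 126 tested genes that had both a variable and a 3-of-3 site within 1 kb were higher in 19.0% and lower in 11.1%.

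These counts depended on the replicates. Without replicate 1 the genes with a promoter variable site had 89 rises and 26 falls (4.22 and 1.23%, against 5.51 and 1.29% of all genes), and without replicate 2 they had 88 and 19 (4.18 and 0.902%, against 5.63 and 1.32%). Without replicate 3 they had 407 and 749 (19.3 and 35.5%, against 24.8 and 30.7%). In each case the share of rises was below that of all genes, while the share of falls was above it only without replicate 3. With no replicate block, 20 rises and no falls were called in these genes by edgeR, against 108 and 4 over all genes.

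**Figure D4:**
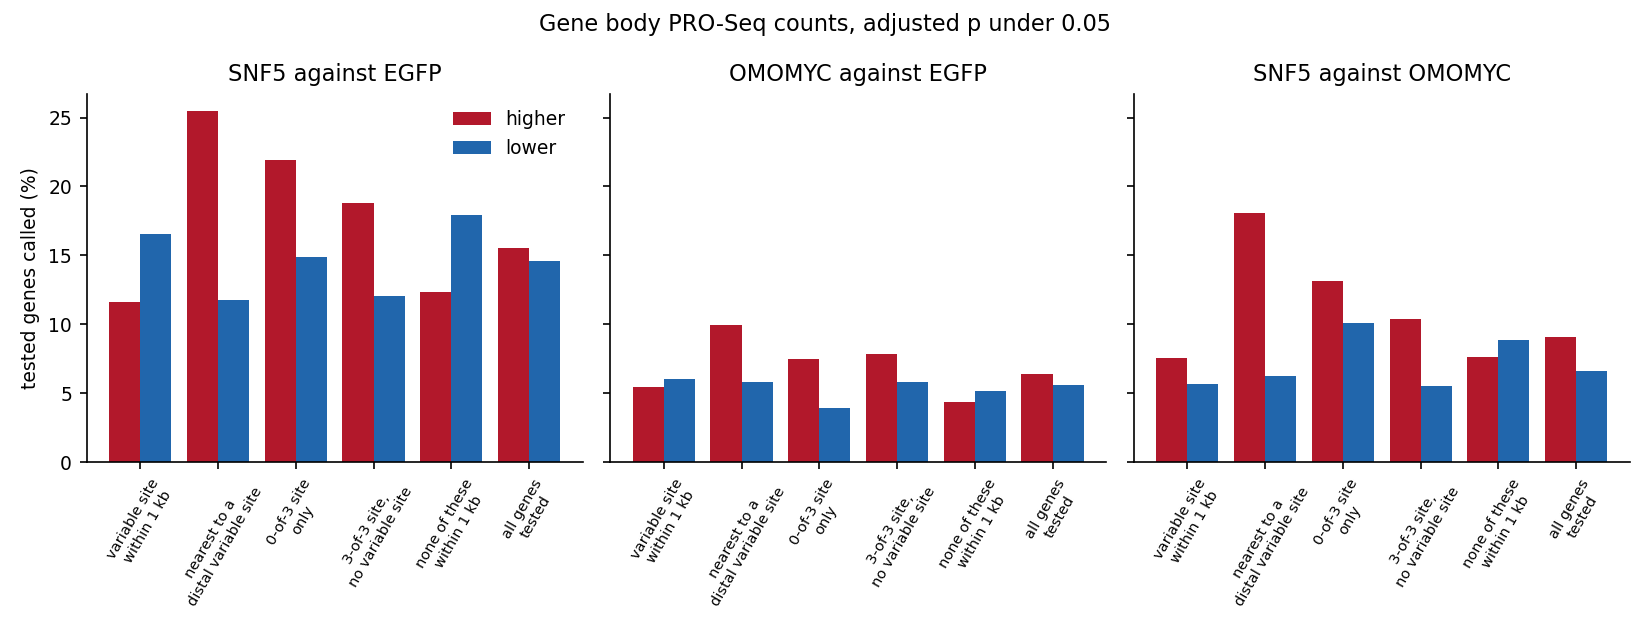
Percent of tested genes called higher (red) or lower (blue) in gene body PRO-Seq counts at an adjusted p under 0.05, for 3 comparisons between constructs and 6 sets of genes by their nearest class of site. Genes nearest to a distal variable site had 25.5% higher and 11.8% lower with SNF5 against EGFP, and genes with a promoter variable site 11.6% and 16.5%.

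Genes nearest to a distal variable site behaved differently. Of 1217 tested, 310 (25.5%) rose with SNF5 and 143 (11.8%) fell, with a median log2 fold change of 0.06. The 1011 of them without a variable site at their own promoter had 261 rises and 113 falls. Direct comparison of SNF5 with OMOMYC, where 9.05% of all genes were higher and 6.63% lower, gave 220 higher (18.1%) and 76 lower (6.25%). These genes were long, with a median gene body of 48.9 kb against 26.0 kb over all tested genes, and had a median of 2995 reads per sample against 1657, and the part of length and depth in the share called was not tested. The rises and falls were 135 and 14 with replicate 1 left out (11.1 and 1.15%), 138 and 22 with replicate 2 left out (11.3 and 1.81%), and 468 and 300 with replicate 3 left out (38.5 and 24.7%), beside the shares of all genes given above. Nearest is a statement of position, and no link between site and gene was measured.

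The genes with the largest rise at promoter variable sites included secreted and membrane proteins. CCDC80, which encodes a secreted protein that binds extracellular matrix, had gene body CPM of 0.505, 0.394 and 2.29 in EGFP, 0.609, 0.595 and 2.79 in OMOMYC, and 4.64, 6.40 and 7.43 in SNF5. All SNF5 samples were above all others, and replicate 3 was the highest sample of each construct. The log2 fold change with SNF5 was 2.76 (standard error 0.41, adjusted p = 0.0021), and the site, chr3:112641000-112641314, had fold enrichments of 5.44, 5.78 and 6.05 in SNF5, 5.23 in EGFP replicate 2 and 4.59 in OMOMYC replicate 2. CD274, which encodes the immune checkpoint ligand PD-L1, had 0.297, 0.466 and 0.249 in EGFP, 0.700, 0.966 and 0.612 in OMOMYC, and 1.29, 2.65 and 2.01 in SNF5. The constructs did not overlap, with OMOMYC between the others, although the EGFP values stand for 10 to 13 reads. The changes were 2.56 with SNF5 (standard error 0.28, adjusted p = 0.00047) and 1.19 with OMOMYC (adjusted p = 0.046), and SNF5 exceeded OMOMYC by 1.37 (adjusted p = 0.0074).

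LHFPL2, a tetraspan membrane protein, had the smallest spread among them. Its CPM values were 79.5, 66.4 and 70.8 in EGFP, 78.5, 71.3 and 67.2 in OMOMYC, and 232, 217 and 215 in SNF5. EGFP and OMOMYC samples were interleaved and the SNF5 samples stood apart. The log2 fold change was 1.62 (standard error 0.06, adjusted p = 1.8e-06) with SNF5 and 0.00 with OMOMYC (adjusted p = 0.99). The matrix protein gene MATN2 had 9.42, 10.4 and 9.81 in EGFP and 50.6, 52.0 and 43.0 in SNF5, a change of 2.28. MOCS1, an enzyme of molybdenum cofactor synthesis, rose with both constructs, by 1.62 with SNF5 and by 1.25 with OMOMYC (adjusted p = 0.024), and the difference of 0.37 between them did not pass the test (adjusted p = 0.27). The kinase gene STK39 (1.60) and the antisense RNA listed as LOC100506409 (1.90) also rose. Of the 8 largest rises, 7 passed the test with any replicate left out, among them each gene named here.

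The falls were smaller. NR4A2, an orphan nuclear receptor gene, had the largest, from 1.40, 1.36 and 1.178 in EGFP to 0.896, 0.718 and 0.412 in SNF5, with 0.944, 0.632 and 0.747 in OMOMYC. Both SNF5 and OMOMYC samples were below all EGFP samples, yet the log2 fold changes of −0.99 with SNF5 (standard error 0.27, adjusted p = 0.025) and −0.74 with OMOMYC (adjusted p = 0.094) lay on either side of the threshold, and their difference was −0.24 (adjusted p = 0.60). With DESeq2 the adjusted p of NR4A2 with SNF5 was 0.066. DCXR, a carbonyl reductase, changed by −0.97 and SAMD1, which binds unmethylated CpG-rich DNA, by −0.85. CEBPA, a transcription factor of myeloid and fat cell differentiation, had 9.93, 12.4 and 16.0 in EGFP, 8.04, 11.9 and 18.2 in OMOMYC, and 5.82, 7.80 and 10.2 in SNF5. The groups overlapped. Its gene body counts changed by −0.69 (standard error 0.12, adjusted p = 0.0038), while its promoter-proximal counts rose by 0.95 (adjusted p = 0.013). The neurofilament gene NEFH (−0.80), RHEBL1 (−0.71), ZNF703 (−0.71) and CA11 (−0.68) were the others, and in each of these the EGFP and SNF5 ranges overlapped. Of the 8 falls, NEFH, ZNF703 and CA11 passed the test with any replicate left out. NR4A2 (adjusted p = 0.12 and 0.14), DCXR (0.097 and 0.11), SAMD1 (0.054 and 0.052) and RHEBL1 (0.21 and 0.21) did not without replicate 1 or without replicate 2, nor did CEBPA without replicate 2 (0.060), and for these the log2 fold changes kept their sign.

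**Figure D5:**
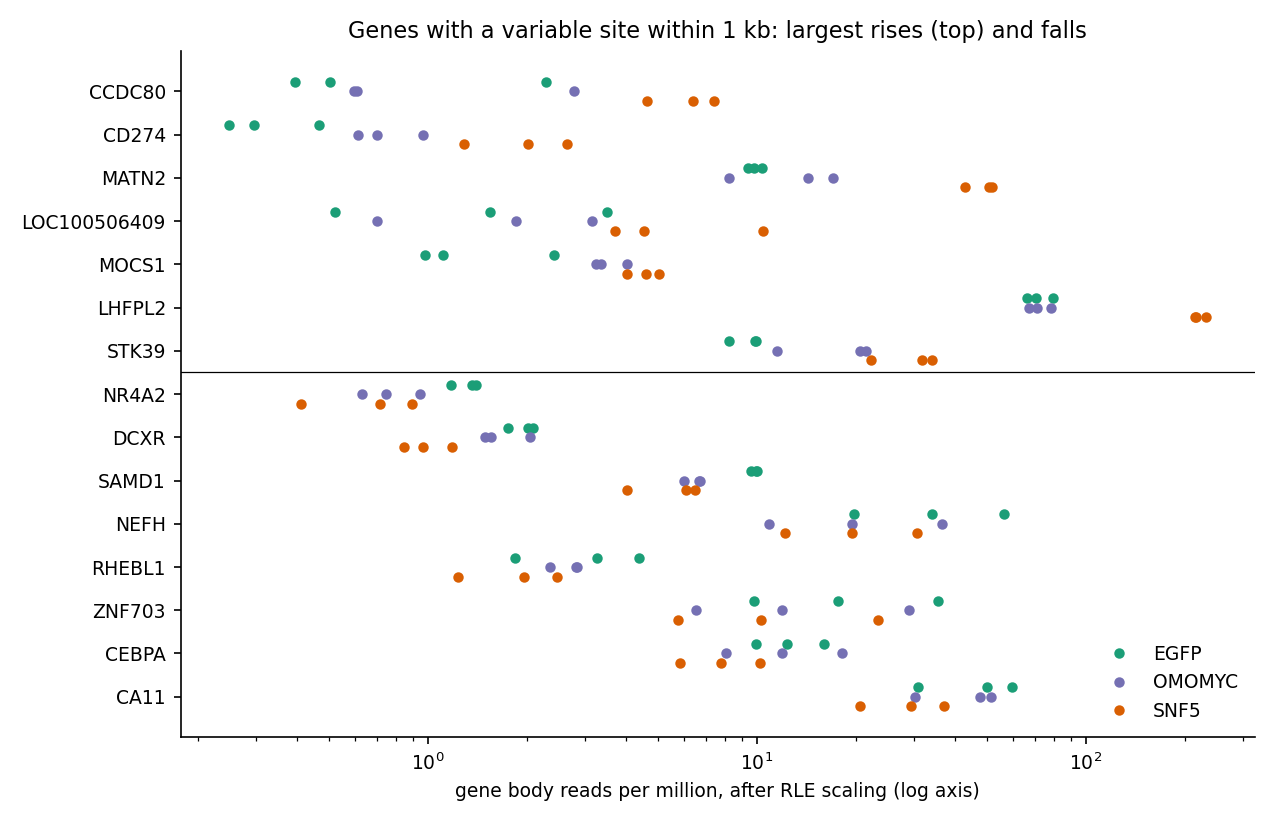
Gene body PRO-Seq CPM after scaling (x axis, log scale) in each of the 9 samples (points) for 7 of the 8 genes with the largest rise and the 8 with the largest fall with SNF5 among genes with a variable site within 1 kb of the start. LHFPL2 shows 66.4 to 79.5 in EGFP and 215 to 232 in SNF5.

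Among genes nearest to distal variable sites, ANKRD1, a nuclear ankyrin repeat protein and known target of YAP, had 4.76, 4.84 and 0.884 in EGFP, 6.18, 7.51 and 0.906 in OMOMYC, and 37.5, 39.8 and 3.46 in SNF5. Replicate 3 was low in every construct, and the groups overlapped. The log2 fold change with SNF5 was 2.79 (standard error 0.19, adjusted p = 5e-05), and the distal site lay 9339 bp downstream of the start with EGFP peaks in replicates 1 and 2. Another SNF5-open site, with no EGFP peak, lay within 1 kb of the ANKRD1 start. AASS, an enzyme of lysine breakdown, rose by 2.71 with SNF5 and by 0.99 with OMOMYC (adjusted p = 0.038), and the kinase gene STK17B by 2.71 and 1.69 (adjusted p = 0.016). For both the direct comparison of SNF5 with OMOMYC passed the test, with 1.72 (adjusted p = 0.0010) and 1.02 (adjusted p = 0.014). The lipid flippase gene ATP8B1 rose by 2.54. The largest falls were those of the ephrin receptor gene EPHA7 (−1.07), CD3EAP (−0.78), KCNJ16 (−0.74) and WNT9A (−0.73), besides NR4A2. EPHA7 had 3.21 and 3.51 in EGFP replicates 1 and 2 but 85.7 in replicate 3, and 1.19, 1.47 and 49.3 in SNF5. AASS, STK17B and EPHA7 each had a 3-of-3 site within 1 kb of the start. The potassium channel gene KCNJ16 fell with both SNF5 (adjusted p = 0.0048) and OMOMYC, where its change was −1.005 (adjusted p = 0.015). The 5 rises passed the test with any replicate left out, and each of the 5 falls missed it without replicate 1, without replicate 2 or without either.

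OMOMYC changed fewer genes. Among genes with a promoter variable site, 114 (5.41%) were higher and 127 (6.03%) lower than in EGFP, against 6.36 and 5.59% of all genes. Among genes nearest to distal variable sites, 121 (9.94%) were higher and 71 (5.83%) lower. The OMOMYC and SNF5 comparisons share the EGFP samples, so their values are given side by side only. The 244 genes higher with SNF5 had a median log2 fold change of 0.42 with SNF5 and 0.18 with OMOMYC, and the 348 lower genes −0.30 and −0.16. In the direct comparison, 159 genes with a promoter variable site (7.55%) were higher with SNF5 than with OMOMYC and 120 (5.70%) lower. No OMOMYC call at these genes remained without replicate 1 or without replicate 2, when edgeR called 3 and 2 genes in all, while without replicate 3 there were 439 higher and 594 lower (20.8 and 28.2%, against 24.0 and 26.4% of all genes). In the direct comparison, leaving out replicate 1 gave 42 higher and 10 lower (1.99 and 0.475%, against 2.59 and 0.492% of all genes), leaving out replicate 2 gave 45 and 8 (2.14 and 0.380%, against 2.45 and 0.439%), and leaving out replicate 3 gave 382 and 433 (18.1 and 20.6%, against 21.9 and 20.3%).

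Promoter-proximal counts, which reflect polymerase paused near the start where the variable sites lie, changed at fewer genes. With SNF5, 53 genes with a promoter variable site (2.52%) were higher and 18 (0.854%) lower, against 3.12 and 1.11% of all genes, when samples were scaled by gene body counts. With scaling by promoter-proximal counts themselves, these were 78 and 95, and over all genes 502 and 508 against 349 and 124. The balance of rises and falls turned with the scaling. Leaving out replicate 2 gave 4 higher and 2 lower (0.190 and 0.0949%, against 0.582 and 0.0627% of all genes), leaving out replicate 1 gave 60 and 74 (2.85 and 3.51%, against 3.54 and 3.18%), and leaving out replicate 3 gave 96 and 19 (4.56 and 0.902%, against 4.72 and 0.985%). With OMOMYC, 37 genes with a promoter variable site (1.76%) were higher and 3 (0.142%) lower in these counts, against 2.16 and 0.161% of all genes. Among the named genes, the counts rose at CCDC80 (1.27, adjusted p = 0.0019), CD274 (1.73, adjusted p = 0.023), MOCS1 (1.90, adjusted p = 0.0020), ANKRD1 (2.59, adjusted p = 1.8e-06), AASS (1.36, adjusted p = 0.030), THBS1 (1.62, adjusted p = 0.0015) and LTBP1 (1.24, adjusted p = 0.0069), besides CEBPA. They fell at KCNJ16 (−0.79, adjusted p = 0.032), and at LHFPL2 the value was −0.20 (adjusted p = 0.80).

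Genes with a promoter variable site were well transcribed in the control. The median of gene body CPM per kb was 2.13, 1.99 and 2.13 in the EGFP samples, against 1.86, 1.84 and 1.84 over all tested genes. It was 1.91, 1.97 and 1.87 for genes with a 3-of-3 site and no variable site, and from 1.44 to 1.53 for genes with only a site that had no EGFP peak. Of 2526 genes with a promoter variable site in the PRO-Seq table, 2107 (83.4%) had enough counts to be tested. This compares with 54.8% of all genes in the table and 91.4% of genes with a 3-of-3 site and no variable site. Genes nearest to distal variable sites were tested in 52.3%.

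Genes of known pathways were followed in lists that had been assembled with earlier results of these data in view. Of all 20367 genes in the PRO-Seq table, 2526 had a promoter variable site and 2327 were nearest to a distal one. Of the 11171 tested genes, these were 2107 and 1217. Whether any list differed from these shares was not tested. Of the 12 genes chosen from these lists that passed the test, ACTN4 and COL1A2 did so with any replicate left out, 2 including SPRED2 missed it without replicate 2, and 8 missed it without replicate 1 and without replicate 2. Of the 29 chosen list genes that did not pass it, 15 did with replicate 3 left out and none with replicate 1 or 2 left out, among them DKK1 (−0.49), SPRY1 (−0.31) and, with a turned sign, FGFR1 (−0.12). For actin cytoskeleton genes, 9 of 43 had a promoter variable site, all 9 were tested, and 4 rose and none fell with SNF5, with a median log2 fold change of 0.32 against −0.02 for all genes. The actin cross-linker gene ACTN4 (0.57, adjusted p = 0.0012) was among them. ACTN4 had 318, 260 and 225 in EGFP and 412, 384 and 385 in SNF5, without overlap. TPM1, a tropomyosin, had 1839, 1523 and 108 in EGFP and 1941, 1790.4 and 847 in SNF5, with a value of 1.19 (adjusted p = 0.12) that was 0.15 without replicate 3. For matrix and adhesion genes, all 4 tested genes with a promoter variable site rose, namely the collagen genes COL1A2 (0.70) and COL1A1 (0.24), THBS1 (0.61), which encodes thrombospondin, and HSPG2 (0.35), which encodes perlecan. COL1A2 had 87.8, 122 and 16.1 in EGFP and 144, 182 and 28.3 in SNF5, and was higher within each replicate number. In the whole lists, 20 of 37 tested actin genes rose and 1 fell, and 15 of 29 tested matrix genes rose and 2 fell.

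In the YAP and TEAD pathway, a regulator of organ growth, 6 genes had a promoter variable site, of which 2 rose and none fell. LATS2, a kinase that restrains YAP, was 0.22 higher (adjusted p = 0.031), while YAP1 itself had 0.09 (adjusted p = 0.17) and AMOTL1 0.44 (adjusted p = 0.051). With genes nearest to distal sites included, 7 of 12 tested genes rose and none fell, next to 11 and 2 of 22 in the whole list. Of the receptor tyrosine kinase and ERK signaling genes, 16 of 53 had a promoter variable site, among them several feedback inhibitors of the pathway (DUSP4, DUSP5, SPRY1, SPRY2, SPRY4 and SPRED2). Of 14 tested, 4 rose and 1 fell, next to 13 and 6 of 46 in the whole list. SPRED2 rose by 0.31 (adjusted p = 0.014), while SPRY1 had −0.15 (adjusted p = 0.20), FGFR1 0.05 (adjusted p = 0.70) and GRB2 −0.04 (adjusted p = 0.54).

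In the TGF-β and BMP list, 1 of 8 tested genes with a promoter variable site rose and none fell, next to 11 and 3 of 33 in the whole list. LTBP1, which holds latent TGF-β in the matrix, had 804, 790 and 138 in EGFP and 1046, 1075 and 659 in SNF5, with a value of 1.11 (adjusted p = 0.056) that was 0.40 without replicate 3. SMAD6 (0.08), SMAD5 (0.02) and BMP7 (0.02) did not pass the test. In the WNT list, where 9 of 26 tested genes rose and 2 fell, 1 of the 5 with a promoter variable site rose, FZD3, a receptor, with 0.25 (adjusted p = 0.021), and the values were 0.36 for TCF7L1, 0.16 for TCF7 and −0.12 for the WNT antagonist DKK1. Of the kidney and mesoderm transcription factors, 11 of 38 were nearest to a distal variable site.

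Among AP-1 and ATF factors, 7 of 29 had a promoter variable site, including FOS, and of 5 tested, 2 fell and none rose. In the whole list 5 of 24 tested genes rose and 6 fell. MAFF fell by 0.30 (adjusted p = 0.037) and BATF3 by 0.41 (adjusted p = 0.043), while NFE2L2 and ATF5 had −0.02 each. Of the SWI/SNF subunits other than SNF5 itself, SMARCC1, a core subunit, fell by 0.14 (adjusted p = 0.046) with 532, 517 and 513 in EGFP and 496, 472 and 454 in SNF5, with adjusted p = 0.0501 under TMM scaling and 0.056 with DESeq2, whereas the ATPase gene SMARCA4 had −0.13 (adjusted p = 0.10), SMARCC2 −0.03 and GLTSCR1 0.00. Of 6 tested cyclin and CDK genes with a promoter variable site, 1 rose and none fell, next to 6 and 2 of 29 in the whole list, and the inhibitor genes CDKN1A (0.06) and CDKN1B (−0.05), RBL1 (0.11) and E2F8 (0.13) did not pass the test.

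Of the ribosomal protein genes, 19 of 73 had a promoter variable site, and all 19 were tested. With SNF5, 3 fell and none rose, with a median log2 fold change of −0.14, and with OMOMYC 11 fell and none rose, with a median of −0.37. Over all 66 tested ribosomal protein genes, 12 fell with SNF5 and 44 with OMOMYC. RPL3 had −0.02 with SNF5 (adjusted p = 0.87) and −0.25 with OMOMYC (adjusted p = 0.048), and the values with SNF5 were −0.09 for RPL27A, 0.01 for RPS29 and 0.07 for RPS23.

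MYC ChIP-Seq, on hg19 and joined by gene, showed how many of these promoters held a MYC peak in the control. A peak in at least 1 EGFP sample lay within 1 kb of the start at 956 of 2526 genes with a promoter variable site, 37.8% (36.0 to 39.8%), against 23.4% of all 20013 genes and 47.9% (46.6 to 49.1%) of genes with a 3-of-3 site and no variable site. The share was 15.8% (12.2 to 19.97%) for genes with only a site that had no EGFP peak. Genes nearest to distal variable sites had 19.0%. The 2 EGFP lists differed, with 6.41% of the genes with a promoter variable site in replicate 1 and 37.8% in replicate 2, and 6.37% in both. Over all genes these were 4.41, 23.4 and 4.37%. In the SNF5 samples, 0.911 and 0.0792% of the genes with a promoter variable site had a MYC peak, against 0.620 and 0.0750% of all genes. The whole SNF5 lists held 137 and 27 MYC peaks.

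The genes with a promoter variable site were then split by the MYC peak, which EGFP replicate 2 held at 955 of the 956 genes. With SNF5, tested genes with a MYC peak fell more often than they rose. Those without one rose more often than they fell. Of 883 tested genes with a MYC peak in an EGFP sample, 44 (4.98%) were higher and 212 (24.0%) lower with SNF5, with a median log2 fold change of −0.13. Of 1224 without one, 200 (16.3%) were higher and 136 (11.1%) lower, with a median of 0.00. Over all tested genes the same split gave 9.08% higher and 20.6% lower with a MYC peak and 19.7 and 10.7% without. With OMOMYC, genes with a promoter variable site and a MYC peak were higher in 2.15% and lower in 10.3%, and those without one in 7.76 and 2.94%. Over all tested genes these were 3.41 and 9.78% with a MYC peak and 8.30 and 2.85% without, close to the shares above. The split by MYC peak was not repeated with a replicate left out. All genes with a promoter variable site had 89 rises and 26 falls with SNF5 without replicate 1, and 88 and 19 without replicate 2.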

How the data were processed

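For ATAC-Seq, adapter-trimmed reads were aligned by the authors to hg38 with Bowtie2, and MACS2 was run on every sample by itself. Each line of a deposited list gives the summit, the fold ratio against the local background, and −log10 values of p and q, and the lowest −log10 q in the ATAC-Seq lists was 3.02. Sequencing depth, which the study lists for each library, was not used here. Among the EGFP libraries, the deepest had the shortest list. MYC ChIP-Seq peaks were called on hg19. The OMOMYC ChIP-Seq lists, which hold a placeholder line, and the IgG samples were not used here. For PRO-Seq, the deposited table was made by the authors on hg19 with NRSA and has read counts of RefSeq transcripts, separately near the promoter and in the gene body. The gene body density signal that the authors computed from these counts was not used. Site centres are the mean of the peak summits.

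The 9 PRO-Seq samples were fitted together with edgeR 4.0.16 in R 4.3.3 (quasi-likelihood, construct plus replicate block, RLE factors of gene body counts used for both regions). The filter was a mean of 10 counts or more near the promoter and in the gene body, the transcript with the largest total stood for each symbol, and p-values were Benjamini-Hochberg adjusted over all 11171 genes at 0.05. CPM are gene body counts divided by these scaled library sizes. The replicate numbers were taken as pairs, as deviations from the construct means correlated at 0.847 to 0.926 for the same number and at −0.774 to 0.247 for other numbers. The fit was checked on simulated counts.

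Of 20367 genes in that table, 20013 had a start in GRCh38.p14 by RefSeq accession or symbol, and no coordinate was converted. Exact (Clopper-Pearson) intervals cover counting error only. Promoter sequences are from RefSeq, GRCh38.p14. Named sites were the 6 with the highest mean SNF5 fold enrichment, and the 6 highest within 1 kb of a protein-coding start. Named genes were the 8 largest rises and falls (5 for distal sites) past the threshold that moved the same way in all 3 replicate pairs, up to 4 genes of each list by mean count, and SMARCB1, of which a few are not reported here. Alternatives were DESeq2 1.42.0, other scalings, filters, windows and peak matching, and leaving out each replicate. The sites and gene lists were chosen with earlier results of these data known. Other steps used Python 3.11.15, NumPy 2.4.6, pandas 2.3.3 and SciPy 1.17.1.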

Additional observations from a re-analysis of the deposited data

How the results depend on the processing

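The number of variable sites was 6429 at −log10 q of at least 5, 6542 with summits matched within 150 bp, 844 with equal numbers of top peaks, and 4198 to 5540 with a replicate left out. The share with an OMOMYC peak was 93.2% with equal numbers of peaks and 62.8 to 95.1% with a replicate left out. The distal share was 34.4% with equal numbers of peaks, 46.5 to 58.3% with a replicate left out, and 60.2% with protein-coding starts only. The share of genes with a MYC peak was 6.37% for peaks in both EGFP samples and 40.1% within 5 kb, against 4.37 and 25.7% of all genes. The cause of these shifts was not tested.

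Since the replicate numbers pair the samples, the fit without the replicate block was an alternative, run with edgeR. It called 20 rises and 0 falls with SNF5 at genes with a promoter variable site, 0 and 0 with OMOMYC, 8 and 0 for SNF5 against OMOMYC, 0 and 0 in promoter-proximal counts, and 23 and 0 at genes nearest to distal sites. With a replicate left out these counts ranged over 88 to 407 and 19 to 749, 0 to 439 and 0 to 594, 42 to 382 and 8 to 433, 4 to 96 and 2 to 74, and 135 to 468 and 14 to 300. Over all genes the fit without the block called 108 and 4 with SNF5 and 1 and 0 with OMOMYC. It called 36 and 4 for SNF5 against OMOMYC, and 0 and 0 in promoter-proximal counts. Without the filter more genes were tested. There were 518 falls with SNF5 at promoter sites (21.4% of 2423), against 13.4% of all 18579 genes. Promoter-proximal counts gave 52 falls (2.20% of 2364), against 1.88% of all 16519. Genes nearest to distal sites had 533 rises and 224 falls (24.0 and 10.1% of 2223), against 14.6 and 13.4% of all genes. Scaling by promoter-proximal counts gave 95 falls in those counts (4.51%, against 4.55% of all genes). Calls were also lost for NR4A2 with DESeq2, SMARCC1 with DESeq2 or TMM scaling, and LATS2 and FZD3 without the filter. Of 37 genes chosen for naming that were past the threshold, 17 stayed past it with any replicate left out and 6 without the block.

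Some log2 fold changes of named genes that did not pass the test changed sign. Without the filter these were BMP7 (−0.040), SMAD5 (−0.041), FGFR1 (−0.0030), GLTSCR1 (−0.051), CDKN1A (−0.00085) and RPS29 (−0.044), and without the block DKK1 (0.18). With a replicate left out, the ranges were −0.060 to 0.028 for NFE2L2, −0.13 to 0.059 for ATF5, −0.051 to 0.15 for SMAD6, −0.017 to 0.043 for BMP7, −0.030 to 0.077 for SMAD5, −0.20 to 0.072 for PDLIM7, −0.12 to 0.14 for FGFR1, −0.49 to 0.079 for DKK1, −0.031 to 0.029 for GLTSCR1, −0.12 to 0.017 for SMARCC2, −0.25 to 0.087 for CDKN1B, −0.038 to 0.072 for RPS29, −0.033 to 0.0033 for RPL3 and −0.028 to 0.14 for RPS23.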
